A study of Mus musculus with 7 samples.

Results

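A set of 10 genes of the bone morphogenetic protein (BMP) pathway were followed across 7 RNA-seq libraries of mouse pancreatic spheroids: the ligand genes Bmp2, Bmp4 and Bmp7, the receptor genes Bmpr1a and Bmpr2, the target genes Id1, Id2 and Id3, and the inhibitor genes Smad6 and Smad7. They were picked by name from a table of 54446 genes, with the group comparison of that table already known, so their differences between the groups are a description and no test is drawn from them. The 4 post-caerulein libraries came from spheroids of wild-type C57BL/6J mice treated earlier with caerulein, a cholecystokinin analogue that inflames the pancreas. The 3 untreated libraries came from spheroids of untreated wild-type C57BL/6J mice. Both kinds of culture are labelled as pancreatic epithelial cells and were grown in the same medium, which holds EGF, hydrocortisone, cholera toxin, pituitary extract and a serum supplement. The sources used here give neither the age and sex of the mice nor the caerulein dose or the time since treatment. They also do not say that the libraries of a group came from different mice or cultures, and the p-values below rest on the spread among these libraries, which may be technical.

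BMP ligands are secreted as dimers and bring type I receptors such as Bmpr1a together with the type II receptor Bmpr2, which then phosphorylate Smad1, Smad5 and Smad9. These Smads enter the nucleus with Smad4 and switch on target genes, of which the Id genes are the classic readout. Id proteins have a helix-loop-helix domain without a DNA-binding region and hold back E proteins, and Smad6 and Smad7 are feedback inhibitors that block the receptors. In the pancreas, BMP signalling is known for roles in duct and progenitor cells and in inflammation.

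The promoters are shown for the letters at which Smads can bind. RefSeq promoters (GRCm38.p6) were matched for 6 of the 10 genes, and those of Id2, Id3 and Smad6, genes known as direct Smad targets, are printed with that of Bmp4, the ligand gene with the largest difference between the groups. Each runs 5′ to 3′ over 260 bases, from 250 bases before the RefSeq start site, and capitals mark GTCTAGAC, the palindromic Smad binding element, or the GC-rich Smad1 elements GGCGCC and GGAGCC, searched on both strands, none of which overlapped another here.
Id2 (chr12:25096083-25096342, minus strand): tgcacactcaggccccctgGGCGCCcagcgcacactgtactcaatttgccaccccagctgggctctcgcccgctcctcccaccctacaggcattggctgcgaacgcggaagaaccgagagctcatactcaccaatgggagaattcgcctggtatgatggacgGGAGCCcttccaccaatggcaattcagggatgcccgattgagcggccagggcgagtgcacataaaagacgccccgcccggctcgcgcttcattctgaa
Id3 (chr4:136143572-136143831, plus strand): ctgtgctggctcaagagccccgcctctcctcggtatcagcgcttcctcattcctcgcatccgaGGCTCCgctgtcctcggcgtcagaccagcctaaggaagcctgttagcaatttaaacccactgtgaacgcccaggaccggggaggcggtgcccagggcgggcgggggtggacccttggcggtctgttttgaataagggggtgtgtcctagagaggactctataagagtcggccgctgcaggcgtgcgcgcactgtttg
Smad6 (chr9:64022050-64022309, minus strand): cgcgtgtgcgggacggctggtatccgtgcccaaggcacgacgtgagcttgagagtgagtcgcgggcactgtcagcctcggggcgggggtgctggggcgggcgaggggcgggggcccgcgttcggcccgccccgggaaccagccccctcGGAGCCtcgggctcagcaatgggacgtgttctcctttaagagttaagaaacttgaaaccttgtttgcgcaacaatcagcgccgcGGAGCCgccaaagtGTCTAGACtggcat
Bmp4 (chr14:46390660-46390919, minus strand): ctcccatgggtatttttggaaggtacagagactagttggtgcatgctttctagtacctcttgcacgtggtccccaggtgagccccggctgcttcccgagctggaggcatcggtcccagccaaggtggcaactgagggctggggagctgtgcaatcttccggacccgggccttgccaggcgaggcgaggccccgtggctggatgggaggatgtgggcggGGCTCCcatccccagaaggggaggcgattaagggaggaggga

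The Smad6 promoter held GTCTAGAC, which begins 4 bases before the start site and crosses it, and that motif was in 0.177% of all 32851 promoter windows of this length. It also held GGAGCC at 2 places, against 26.8% of windows with at least 1 match. Id2 held GGCGCC, found in 9.96% of windows, and GGAGCC, while Id3 and Bmp4 each held GGAGCC once. The matched promoters of the receptor genes Bmpr1a and Bmpr2, not printed, each held GGCGCC once. All 6 matched promoters thus held at least 1 of the motifs, which did not mark the Smad targets alone. The motifs were chosen with these sequences in view, and a match is a description of letters, not of binding.

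Total counts lay between 34783738 and 46744497 in post-caerulein libraries and between 41241985 and 46260577 in untreated ones. Values are in CPM, the reads of a gene as a share of the library total, on library sizes scaled by the trimmed mean of M-values (TMM). All 10 genes passed the filter on low counts, as did 16438 genes in all. The libraries stood apart in a way that cut across the groups. The authors' deposited table of log2 fold changes is returned to within 3.16e-08 by a fit with a term that separates post-caerulein 04 and untreated 03, called the smaller block here, from the other 5 libraries, the larger block. The group alone leaves differences of up to 3.98. No label says what this block is. Post-caerulein 02 and 03, and untreated 01 and 02, also lay close together, with a chi-square of 10.2 and 12.4 per gene against 66.4 or more for every other pair, so they differed by more than sampling noise but may not be independent. Each of the 8 ductal epithelial markers was detected in every library, Krt19 at 2304 to 4467 CPM in post-caerulein and 2349 to 3020 CPM in untreated libraries. Sox9, a ductal transcription factor gene among the 8, was at 37.1 to 51.7 CPM in post-caerulein libraries, against 10.9, 12.9 and 61.7 CPM in untreated 01 to 03.

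Per exon length, the 3 Id genes were the most abundant of the 10 and the ligand genes were among the lowest. In FPKM, here CPM divided by the exon length in kilobases, the level averaged over the 7 libraries was 60.5 for Id2, 38.7 for Id1, 29.7 for Id3, 17.7 for Bmpr1a, 9.15 for Bmpr2, 4.75 for Smad7, 3.10 for Bmp4, 1.00 for Smad6, 0.740 for Bmp7 and 0.410 for Bmp2. The ranges of the 3 Id genes overlapped each other, from 19.9 FPKM for the lowest Id3 library to 100.5 FPKM for the highest Id2 library. Bmpr1a (15.6 to 19.2 FPKM) and Bmpr2 (8.45 to 10.6 FPKM) did not overlap any neighbour in this order. From Smad7 down, each gene overlapped the next in this order.

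**Figure D1:**
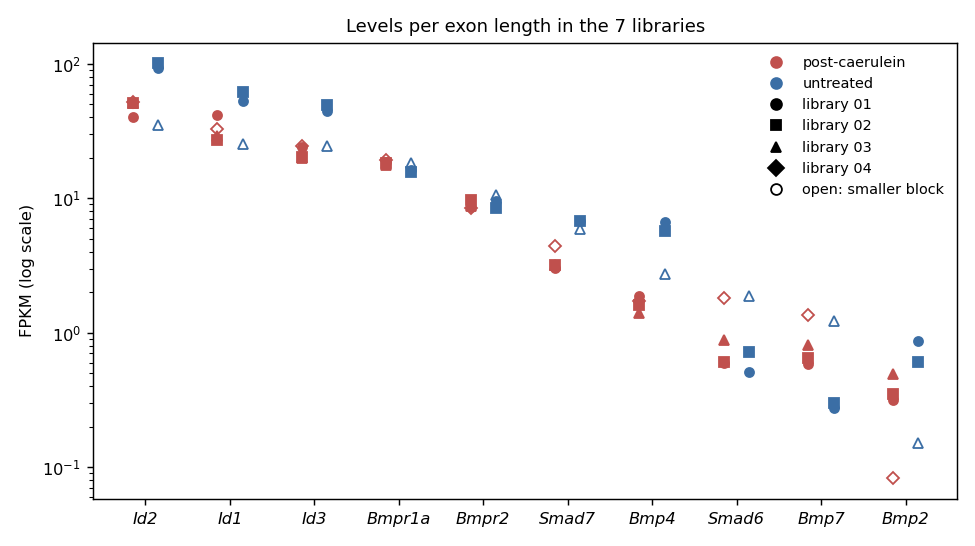
FPKM of the 10 genes on a log axis, ordered by their mean over the 7 libraries, with post-caerulein libraries (red) left of untreated ones (blue), a marker shape per library number and open markers for the smaller block. The Id genes lie at the top and Bmp2 at the bottom, and the receptor genes vary least.

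Among the ligands, Bmp4 was lower in every post-caerulein library than in any untreated one. Bmp4 (ENSMUSG00000021835, chromosome 14, 46383520 to 46390669, minus strand, GRCm38), whose product patterns many epithelia, was at 3.90, 3.30, 2.91 and 3.57 CPM in post-caerulein 01 to 04, against 13.8, 11.7 and 5.65 CPM in untreated 01 to 03. The 4 post-caerulein libraries were tightly grouped, at 3.42 ± 0.420 CPM (SD, n = 4), while the untreated ones were spread, at 10.4 ± 4.22 CPM (SD, n = 3), with untreated 03 between the other untreated libraries and the post-caerulein ones. The log2 difference was -1.60 ± 0.31 (SE, edgeR) with the group as the only term and -1.56 ± 0.27 with the block as a second term. Within the larger block it was -1.91, and between post-caerulein 04 and untreated 03 it was -0.65. An antisense gene, Gm15222, overlaps Bmp4 over 1764 bases and had 71 to 85 reads in post-caerulein and 106 to 256 reads in untreated libraries. The sources used here do not say whether the counting used strand, so reads of Bmp4 and of Gm15222 cannot be told apart in that stretch.

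The groups overlapped for Bmp2 and Bmp7, and their levels went with the block. Within each block Bmp2 was lower and Bmp7 higher in post-caerulein libraries. Bmp2 (chromosome 2, 133552159 to 133562885), a close relative of Bmp4, was at 1.12, 1.25, 1.75 and 0.294 CPM in post-caerulein 01 to 04, against 3.09, 2.15 and 0.534 CPM in untreated 01 to 03. The lowest value of each group was in the smaller block, with 14 reads in post-caerulein 04 and 24 reads in untreated 03. Bmp7 (chromosome 2, 172868012 to 172940321), a ligand known for its part in kidney and eye development, was at 2.16, 2.39, 2.97 and 4.94 CPM in post-caerulein 01 to 04, against 1.01, 1.10 and 4.45 CPM in untreated 01 to 03. Here the smaller block held the highest value of each group. Within the larger block Bmp7 differed by 1.20 on the log2 scale and Bmp2 by -0.91, and between post-caerulein 04 and untreated 03 the differences were 0.15 and -0.77, in that order. With the block as a term the values were 0.90 ± 0.29 for Bmp7 and -0.91 ± 0.27 for Bmp2 (SE). Neither gene passed edgeR's quasi-likelihood test.

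The receptor genes were nearly level across the 7 libraries. Bmpr1a (chromosome 14, 34410734 to 34502687) averaged 111 ± 3.68 CPM in post-caerulein (SD, n = 4) and 101 ± 8.34 CPM in untreated libraries (SD, n = 3), with 107 to 116 CPM and 94.5 to 110 CPM in the 2 groups, which overlapped. Bmpr2 (chromosome 1, 59763400 to 59879014) averaged 114 ± 6.86 CPM in post-caerulein and 123 ± 14.0 CPM in untreated libraries, and its groups overlapped too. The log2 range over all 7 libraries was 0.29 for Bmpr1a and 0.33 for Bmpr2, against 1.17 to 3.20 for the other 8 genes. Their log2 differences between the groups, with the block as a term, were 0.15 ± 0.07 and -0.10 ± 0.10 (SE).

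**Figure D2:**
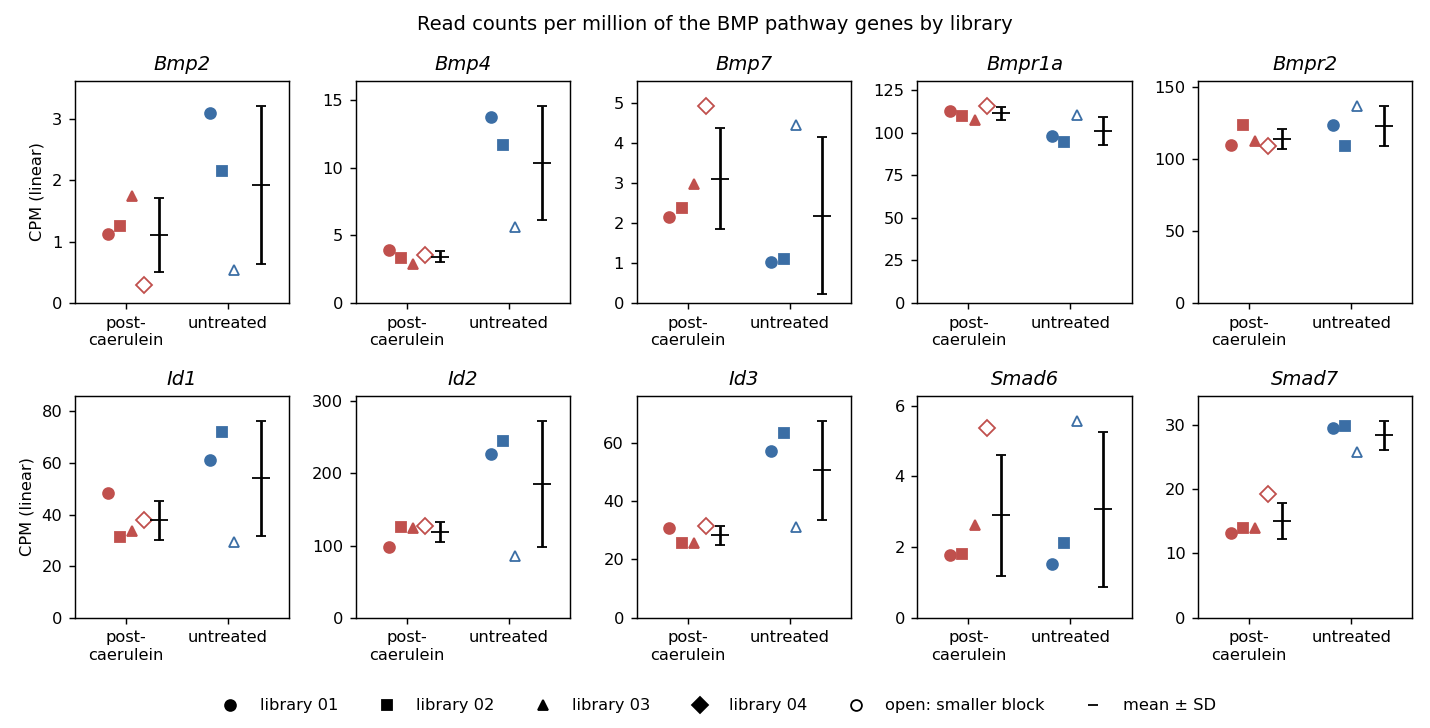
CPM of each of the 10 genes by library on linear axes from 0, with post-caerulein libraries left of untreated ones, open markers for the smaller block (post-caerulein 04 and untreated 03) and the mean ± SD beside each group. Bmp4 and Smad7 do not overlap between the groups, and for Id1, Id2 and Id3 untreated 03 lies with the post-caerulein libraries while untreated 01 and 02 lie above them.

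The 3 Id genes shared a pattern in which untreated 01 and 02 were high and the other 5 libraries low. Id1 (chromosome 2, 152736251 to 152737410), an inhibitor of E proteins that is induced within hours of BMP addition in many cells, was at 48.4, 31.3, 33.7 and 38.0 CPM in post-caerulein 01 to 04, against 61.3, 72.0 and 29.2 CPM in untreated 01 to 03. Untreated 03 was thus below every post-caerulein library. Id2 (chromosome 12, 25093799 to 25097140), which also binds the retinoblastoma protein, was at 97.3, 125, 125 and 127 CPM in post-caerulein 01 to 04, against 227, 245 and 85.6 CPM in untreated 01 to 03, and untreated 03 was again the lowest of all. Id3 (chromosome 4, 136143497 to 136145392) was at 31.0, 25.7, 25.5 and 31.4 CPM in post-caerulein 01 to 04, against 57.3, 63.3 and 31.2 CPM in untreated 01 to 03, so that untreated 03 fell within the post-caerulein range.

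The Id differences had other values in the larger block than between the 2 libraries of the smaller one. In the larger block the log2 differences were -0.84 for Id1, -1.04 for Id2 and -1.14 for Id3, while between post-caerulein 04 and untreated 03, a single library each, they were 0.38, 0.57 and 0.01. Whether the blocks differ in this was not tested. With the block as a term the values were -0.48 ± 0.26, -0.58 ± 0.29 and -0.81 ± 0.22 (SE), and none of the 3 genes passed edgeR's quasi-likelihood test. With 1 library left out the Id1 value ran from -0.80 (without untreated 03 or post-caerulein 04) to -0.29 (without untreated 02), and the Id2 value from -1.01 (without untreated 03 or post-caerulein 04) to -0.40 (without untreated 02). Id4, the fourth gene of the family, was too low to test, with 8 reads in the 4 post-caerulein libraries together and 12 reads in the 3 untreated ones.

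Markers of other cell types moved with untreated 03 and with the groups. The summed level of 8 fibroblast and stellate cell markers was 3.00 to 7.30 CPM in post-caerulein libraries and 0.127 to 21.1 CPM in untreated ones, where untreated 03 had the 21.1 CPM. Col3a1 and Pdgfrb were at 0 in untreated 01 and 02 and above 0 in every other library. Lum and Thy1 were at 0 in untreated 01 and 02 too, but they reached only 0.111 and 0.0420 CPM in any library. Thy1 was also at 0 in untreated 03, and Lum in post-caerulein 01 and 04. Of 7 leukocyte markers, 6 stayed under 1 CPM in every library, among them Ptprc, while Cd68 was at 11.7 to 35.0 CPM in post-caerulein and 20.6 to 97.9 CPM in untreated libraries, highest in untreated 03. The summed level of 7 endothelial markers, of interest because endothelium expresses Id1, Id3 and Smad6, was 1.37 to 2.33 CPM in post-caerulein and 1.46 to 1.87 CPM in untreated libraries, with 6 of them under 1 CPM throughout. The summed level of 7 acinar markers was 1.75 to 11.5 CPM in post-caerulein and 0.619 to 0.823 CPM in untreated libraries, which separated the groups at low levels. That of 6 islet markers was 0.462 to 4.51 CPM in post-caerulein and 0.0248 to 0.400 CPM in untreated libraries. The islet sums of post-caerulein 04 (0.462 CPM) and untreated 03 (0.400 CPM) nearly met. Of the 6, Chga was at 0.210 and 0.289 CPM and Gcg at 0.0210 and 0.0667 CPM in these libraries, in that order. The summed fibroblast markers and Sox9 set untreated 01 and 02 apart from the other libraries, as the Id genes do. Cd68 did not, at 24.8 and 20.6 CPM in untreated 01 and 02, within the post-caerulein range. The part of all these markers in the values of Bmp4, Smad7 and the Id genes was not tested. In bulk libraries fewer cells of a type and less RNA per cell cannot be told apart.

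The inhibitory Smads behaved differently from each other. Smad7 (ENSMUSG00000025880, chromosome 18, 75367529 to 75395935), which restrains both BMP and TGF-beta receptors, was at 13.2, 14.0, 13.9 and 19.3 CPM in post-caerulein 01 to 04, against 29.5, 29.9 and 25.8 CPM in untreated 01 to 03. The groups did not overlap, and here untreated 03 stayed with the other untreated libraries. The means were 15.1 ± 2.80 CPM (SD, n = 4) and 28.4 ± 2.28 CPM (SD, n = 3), a log2 difference of -0.91 ± 0.16 (SE) with the group alone and -0.91 ± 0.15 with the block. The larger block gave -1.11, and the pair of post-caerulein 04 and untreated 03 gave -0.42. Smad6 (chromosome 9, 63953076 to 64022059), which acts mainly on BMP receptors, was at 1.77, 1.80, 2.63 and 5.38 CPM in post-caerulein 01 to 04, against 1.51, 2.13 and 5.58 CPM in untreated 01 to 03. Its highest value in each group came from the smaller block, the groups overlapped, and the log2 difference was 0.11 ± 0.24 with the block and -0.08 ± 0.57 without it.

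With the block as a term, edgeR's quasi-likelihood test called 2 of the 10 genes, Bmp4 and Smad7, both lower in post-caerulein libraries, beside 1.53% of the 16438 genes tested (0.876% lower and 0.651% higher). With the group as the only term it called 0 of the 10 and 0% of all genes, 3 of the 10 had an unadjusted p under 0.05 (Bmp4, Id3 and Smad7) beside 9.5% of all genes, DESeq2 called 2 (3.1% of all genes) and limma-voom 0. Bmp4 and Smad7 were also the 2 genes of the 10 whose groups did not overlap, beside 9.32% of all genes (4.65% lower). Since the genes were chosen with this comparison known, nothing is read from these counts. With the block, the test called 0 of the 10 genes without any one of post-caerulein 01, 02 or 03 or untreated 01 or 02, 0 with each close pair summed into 1 library, and 6 of the 10 without post-caerulein 04 or without untreated 03, where 1 library is left in the smaller block and adds nothing to the group difference. In those 2 settings 13% and 13.5% of all genes tested were called. Those 6 were Bmp4, Bmp7, Id1, Id2, Id3 and Smad7 in both cases. With the close pairs summed, 0 of all genes were called. For the other settings with 0 of the 10, the share of all genes is not given here, so those counts cannot be weighed.

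**Figure D3:**
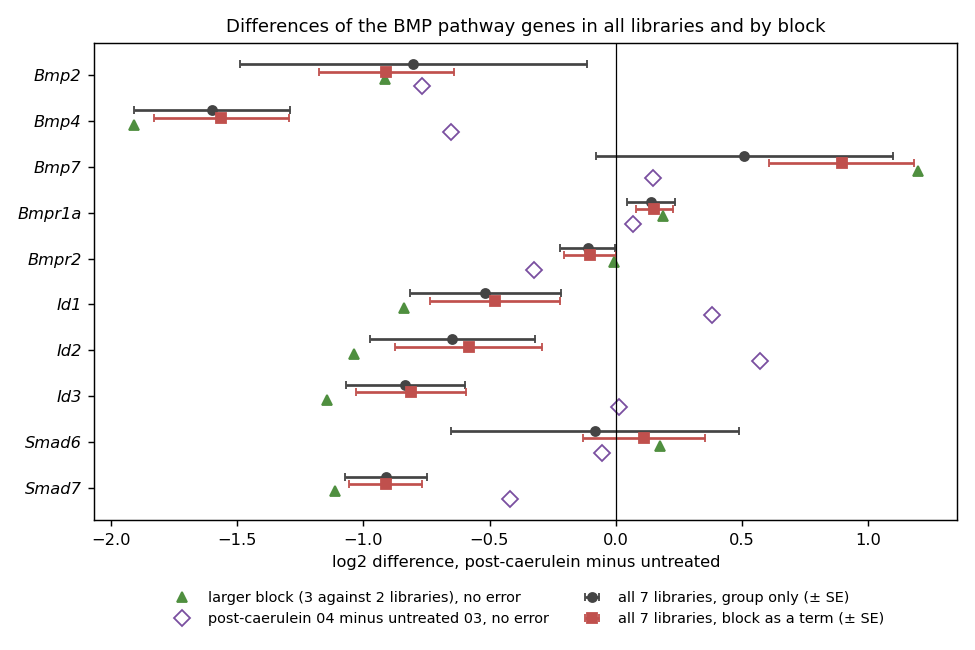
Log2 difference, post-caerulein minus untreated, for each of the 10 genes: over all 7 libraries with the group alone (black circles, ± SE) and with the block (red squares, ± SE), within the larger block (green triangles) and between post-caerulein 04 and untreated 03 (open diamonds). Bmp2, Bmp4, Bmpr2 and Smad7 lie below 0 in all 4, Bmpr2 by only -0.007 in the larger block. Id1 and Id2 lie below 0 in the larger block and above it between the 2 libraries of the smaller block.

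In the authors' deposited table, 7.88% of 12983 genes have a false discovery rate under 0.05, and 3 of the 10 are among them. The log2 fold changes of the authors' deposited table are -1.55 for Bmp4, -0.90 for Smad7 and -0.80 for Id3. For Id1 and Id2 the authors' deposited table gives -0.47 and -0.57, with false discovery rates of 0.261 and 0.157.

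The 10 genes were also compared with each other by the root mean square difference of their centred log2 CPM over the 7 libraries, which is small when libraries order and space alike. The 3 Id genes were close, at 0.22 for Id1 with Id3, 0.28 for Id2 with Id3 and 0.31 for Id1 with Id2. Smad7 lay 0.28 from Id3 and 0.46 from Bmp4, and Bmp7 lay 0.45 from Smad6. Bmpr1a and Bmpr2 were closest of all, at 0.15, both being nearly flat. By the same measure, over 9308 named genes of an average log2 CPM of at least 3, the gene nearest to Bmp4 was Rdh10, a retinol dehydrogenase gene of retinoic acid synthesis, at 0.16. Rdh10 was at 93.0, 99.5, 81.7 and 121 CPM in post-caerulein 01 to 04, against 358, 357 and 144 CPM in untreated 01 to 03. Upp1, a uridine phosphorylase gene, and Smpdl3a, a phosphodiesterase gene, followed at 0.23 and 0.25. Nearest to Id1 were Flrt3, Zbtb18 and Eml4, each at 0.12 to 0.13. Nearest to Smad7 were Rhobtb2, Btbd11 and the kinase gene Pim3, at 0.11, 0.11 and 0.12, and Pim3 was at 104, 107, 104 and 126 CPM in post-caerulein 01 to 04, against 227, 218 and 229 CPM in untreated 01 to 03.

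The rest of the pathway was read from 7 lists with 84 genes, the 10 included. Of the 74 other genes, 53 were tested and 1 passed with the block, Tob1, which was lower. None was higher, by edgeR's quasi-likelihood test, with 15 of the 53 at an unadjusted p under 0.05 in either direction (17.5% of all genes), 9 called by DESeq2 (8.45% of all genes) and 1 by limma-voom (2.18% of all genes). Not all of the 74 are listed in the authors' deposited table. There 6 of them have a false discovery rate under 0.05, beside 7.88% of its 12983 genes. Nbl1, Acvrl1 and Tob1 are lower there, with log2 fold changes of -1.23, -1.12 and -0.59. Bmp8b, Inhba and Ltbp1 are higher, with 0.75, 0.76 and 1.21. The median log2 difference of the 53 tested genes was -0.02 with the block, beside -0.00 over all genes tested. The groups did not overlap for 4 of the 53, all lower, where 4.65% of all genes were lower without overlap. These were Acvrl1, Acvr2b, Rgmb and Nbl1, of which the first 3 are named after their values were seen.

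Tob1, an antiproliferative gene whose product binds Smads and restrains BMP signalling in bone cells, fell in post-caerulein libraries with the block as a term. It was at 158, 132, 133 and 83.1 CPM in post-caerulein 01 to 04, against 219, 219 and 118 CPM in untreated 01 to 03. Within each block the post-caerulein libraries were lower, but untreated 03 lay below 3 of the post-caerulein libraries, so the groups overlapped. The log2 difference was -0.60 ± 0.09 (SE, adjusted p = 0.0364, edgeR quasi-likelihood). The adjusted p from edgeR was 0.114 without post-caerulein 02, 0.135 without post-caerulein 03, 0.259 without untreated 01, 0.257 without untreated 02, and 0.608 with the group as the only term. Of its list of 10 intracellular inhibitors of Smad signalling, all tested, 2 fell (Smad7 and Tob1) and 0 rose with the block, beside 0.876% and 0.651% of all genes. Smurf1, a ubiquitin ligase gene for Smads and receptors, was at 152 to 213 CPM in post-caerulein and 188 to 221 CPM in untreated libraries.

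Of 14 BMP and GDF ligand genes, 8 were tested, and 1 fell (Bmp4) and 0 rose with the block, beside 0.876% and 0.651% of all genes. DESeq2 called 4 of them, Bmp4, Bmp6, Bmp7 and Bmp8b, beside 8.45% of all genes. Per exon length Bmp8b was the most abundant ligand gene, at 14.3 FPKM over the 7 libraries, ahead of Bmp6 at 6.76 FPKM and Bmp4 at 3.10 FPKM. Bmp8b was at 49.8, 43.8, 41.8 and 61.0 CPM in post-caerulein 01 to 04, against 22.7, 24.1 and 51.9 CPM in untreated 01 to 03, a log2 difference of 0.74 ± 0.16 (SE), with an adjusted p of 0.0694 in edgeR's test with the block. Untreated 03 again lay within the post-caerulein range. Bmp8a and Bmp8b are near-identical neighbours, and the values of both are uncertain, since no source used here says how shared reads were counted. Bmp6, known for iron regulation, was at 17.0 to 24.8 CPM in post-caerulein and 22.4 to 32.3 CPM in untreated libraries, and its groups overlapped.

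Of 12 receptor and co-receptor genes, 10 were tested and 0 passed with the block by edgeR's quasi-likelihood test (1.53% of all genes passed). An unadjusted p under 0.05 was found for 3 (17.5% of all genes), and DESeq2 called 2 (8.45%) and limma-voom 0 (2.18%). The groups did not overlap for 3 of the 10, all lower, where 4.65% of all genes were lower without overlap. Acvrl1, a type I receptor gene best known from endothelium, was at 1.04 to 2.89 CPM in post-caerulein and 3.31 to 4.70 CPM in untreated libraries. Acvr2b, a type II receptor gene, was at 4.12 to 6.80 CPM in post-caerulein and 7.52 to 8.71 CPM in untreated libraries. Rgmb, a co-receptor gene, was at 24.1 to 28.8 CPM in post-caerulein and 32.4 to 33.2 CPM in untreated libraries.

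Of 16 secreted antagonists and Bambi, 8 were tested and 0 passed by the same test (1.53% of all genes passed). An unadjusted p under 0.05 was found for 3 (17.5% of all genes), and DESeq2 called 2 (8.45%) and limma-voom 0 (2.18%). Nog, Sost, Sostdc1 and Cer1 had no read in any library. Nbl1, an antagonist of the DAN family, was at 8.02, 17.5, 21.1 and 33.3 CPM in post-caerulein 01 to 04, against 36.4, 36.3 and 82.0 CPM in untreated 01 to 03. The groups did not overlap, and the smaller block held the highest value of each. Its log2 difference was -1.25 ± 0.29 (SE), with an adjusted p of 0.0821 in edgeR's test with the block, while DESeq2 called it. The authors' deposited table gives Nbl1 a false discovery rate of 7.6e-05. Twsg1, a modulator of ligand binding, was at 75.5 to 118 CPM in post-caerulein and 64.2 to 115 CPM in untreated libraries.

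No difference was called among the Smads that carry the signal. Of 6 such genes 5 were tested and 0 passed with the block by edgeR's quasi-likelihood test (1.53% of all genes passed). An unadjusted p under 0.05 was found for 0 (17.5% of all genes), and DESeq2 called 0 (8.45%) and limma-voom 0 (2.18%). With so few genes, these counts are not read as a lack of change. Smad1 and Smad5 stood at 56.1 and 47.7 CPM on average in post-caerulein libraries, against 53.7 and 51.5 CPM in untreated ones. Smad4, the common partner, was at 97.6 to 127 CPM in post-caerulein and 120 to 132 CPM in untreated libraries. Smad3, of the TGF-beta arm, was at 185 to 250 CPM in post-caerulein and 151 to 356 CPM in untreated libraries, with untreated 03 the highest.

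Of the list with the Id genes, E proteins and other BMP targets, 9 of 12 were tested and 0 passed with the block (1.53% of all genes passed). An unadjusted p under 0.05 was found for 1, Id3 (17.5% of all genes), and DESeq2 called 1, Id3 (8.45%), and limma-voom 0 (2.18%). The E protein genes Tcf3 and Tcf12, whose products Id proteins bind, differed by 0.02 ± 0.11 and -0.12 ± 0.11 on the log2 scale (SE). Atoh8, a BMP target in several tissues, was at 1.04, 0.805, 0.990 and 1.47 CPM in post-caerulein 01 to 04, against 3.22, 3.90 and 0.334 CPM in untreated 01 to 03, with untreated 01 and 02 highest and untreated 03 lowest, as for Id1 and Id2. Dlx3, another tested gene of this list, had the opposite order, at 0.173, 0.148 and 2.98 CPM in untreated 01 to 03. It was at 0.280, 0.971, 0.737 and 1.70 CPM in post-caerulein 01 to 04. Its log2 difference with the block was 0.90 ± 0.70 (SE). The median log2 difference of the 9 was -0.48 with the block, a value that the 3 Id genes take part in.

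**Figure D4:**
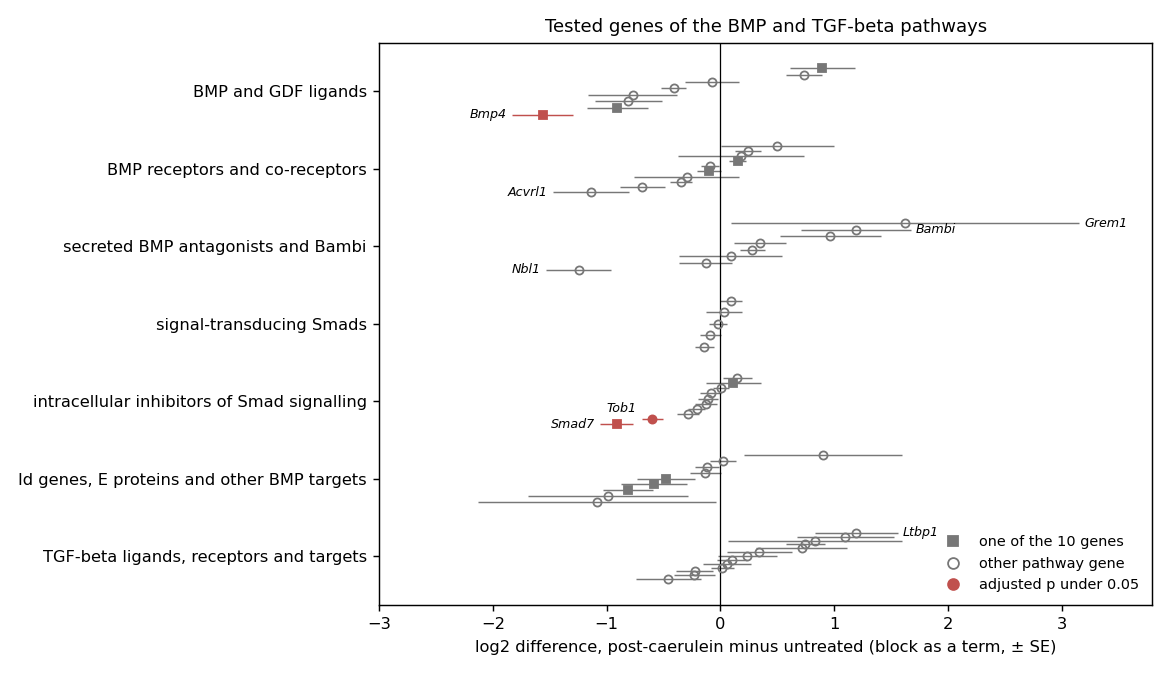
Log2 difference, post-caerulein minus untreated, with the block as a term and its SE, for every tested gene of the 7 lists, 1 row of points per list. Red points passed the test (Bmp4, Smad7 and Tob1, all lower), filled squares are the 10 genes, and the signal-transducing Smads lie close to 0.

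The TGF-beta arm, which Smad7 also restrains, gave 0 calls among 13 tested of 14 genes with the block by edgeR's quasi-likelihood test (1.53% of all genes passed). An unadjusted p under 0.05 was found for 3 (17.5% of all genes). DESeq2 called 2, Inhba and Ltbp1 (8.45% of all genes), and limma-voom 0 (2.18%). In edgeR's fit with the block both were higher, by 0.75 ± 0.17 for Inhba and 1.20 ± 0.36 for Ltbp1 on the log2 scale (SE). Tgif1, a repressor of Smad transcription, was at 134 to 203 CPM in post-caerulein and 167 to 203 CPM in untreated libraries.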

How the data were processed

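Polyadenylated RNA was sequenced, per the labels' protocols. The authors deposited raw read counts per gene, 1 column per library. The submitters' processing notes name featureCounts 0.6.1, edgeR 3.2.2 and GRCm38 (mm10). A second deposited table, made by the authors with edgeR, holds per gene a log2 fold change, a mean log2 CPM, a score (the likelihood ratio), a p-value and a false discovery rate, per the file headers. Aligner and strand setting: not given in the sources used here.

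Groups and replicate numbers came from the titles. Gene IDs were given symbols from GENCODE M21 (54409 of 54446). The 10 genes, the 7 lists, the markers and the block were chosen with earlier results of these data known. Low genes were removed by filterByExpr (10 counts, total of 15), libraries were scaled by TMM and genes were tested two-sided with edgeR 4.0.16 (quasi-likelihood, robust) in R 4.3.3, with Benjamini-Hochberg adjustment over 16438 genes and a threshold of 0.05. DESeq2 1.42.0 and limma-voom (limma 3.58.1) were alternatives, beside other scalings, filters and left-out libraries. Exon lengths are those of the count table. Log2 values per library used a prior count of 2. A count of 0 allows up to 3 counts, 0.0642 to 0.0862 CPM at these depths, for counting error only. The procedure was tested on simulated data. It recovered 36% of 100 genes changed 2-fold with the group alone and 64% with the block. For 4-fold changes it recovered 78% and 100%, in that order. The least abundant genes were not among those changed. A gene that was not called may thus still differ. Figures used matplotlib 3.10.9.

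Named were the 10 genes, list genes called with the block, the 2 most abundant of each list by FPKM, and the 3 genes nearest to Bmp4, Id1 and Smad7, except for 1 gene that is not reported here. Acvrl1, Acvr2b, Rgmb, Smad1, Smad5, Tcf3, Tcf12, Atoh8, Dlx3, Hey1, Msx1, Id4, Chrd, Bambi, Inhba, Ltbp1, Bmp8a, Nog, Sost, Sostdc1, Cer1 and Gm15222 outside this rule were named after their values were seen.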

Additional observations from a re-analysis of the deposited data

Results flagged for a closer look

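In the 4 post-caerulein libraries, the gap between an extreme library and its nearest neighbour, divided by the range of the group, was above Dixon's 95% critical value for 2 of the 10 genes, where chance flags about 5% of groups. For Id2 it was 0.914, with post-caerulein 01 at 97.3 CPM below the other 3 at 125 to 127 CPM. For Smad7 it was 0.881, with post-caerulein 04 at 19.3 CPM above the other 3 at 13.2 to 14.0 CPM. Post-caerulein 04 is 1 of the 2 libraries of the smaller block. The part of the block in the Smad7 value was not tested.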

How the results depend on the processing

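Of 10 genes, the number called with the block was 2. It was 1 under a stricter filter (50 counts in 3 libraries), 4 with DESeq2, 6 in the larger block alone, 0 with each close pair summed, 4 with the replicate block added and 3 (Bmp4, Id3 and Smad7) with a likelihood ratio test, and it ranged from 0 to 6 when 1 library was left out. With the group alone it was 0, and it was 2 with DESeq2, 2 with the likelihood ratio test (an alternative added after the data were seen) and 0 to 5 with 1 library left out (5 without untreated 03, 1 without post-caerulein 04). The shares of all genes called are not given here for those left-out libraries with the group alone, nor for the replicate block added. With the block they were 13.5% without untreated 03 and 13% without post-caerulein 04. Nothing is read from the member counts. Over all genes the test with the block called 251, against 0 with pairs summed, 1389 with DESeq2, 1227 with the likelihood ratio test and 2247 in the larger block. With the group alone it called 0, against 509 with DESeq2. The same replicate numbers did not pair the libraries: deviations of same-numbered libraries correlated across genes at 0.37, 0.14 and -0.21. The replicate block with the group alone called 0 genes. Bmp4 and Smad7 were lower in post-caerulein libraries under all 18 alternatives with the block, by -1.90 to -1.37 and -1.13 to -0.83 on the log2 scale. Direction turned for 2 genes, neither called in any setting. Bmpr2 with the block ranged from -0.19 to 0.014 with 1 library left out (0.013 without untreated 03, 0.014 without post-caerulein 04), and was 0.017 in the larger block and 0.0092 with the replicate block. Smad6 with the block ranged from -0.047 to 0.24 (-0.047 without untreated 01, -0.037 without post-caerulein 03), and was -0.012 with the replicate block. With the group alone Smad6 ranged from -0.57 to 0.69 (0.69 with untreated 03 left out, 0.10 with post-caerulein 01 and 0.086 with post-caerulein 02 left out), and was 0.0088 with limma-voom. The cause of these changes was not tested. Bmp2, Bmp7 and Smad6 rest on 14 to 256 reads per library, which limits their precision.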

Other observations

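Hey1, a transcription factor gene that BMP and Notch signals can both induce, did not pass the filter on low counts and was at 0.0841, 0.139, 0.147 and 0.0631 CPM in post-caerulein 01 to 04, against 1.93, 1.86 and 0.0667 CPM in untreated 01 to 03. It had 3 to 7 reads in post-caerulein libraries, against 78, 88 and 3 reads in untreated 01 to 03. Msx1, a homeobox target of BMP, had 4 to 18 reads in post-caerulein libraries, against 27, 31 and 0 reads in untreated 01 to 03. Chrd, which encodes the antagonist chordin, was at 6.73, 7.58, 12.2 and 1.56 CPM in post-caerulein 01 to 04, against 3.17, 2.97 and 2.20 CPM in untreated 01 to 03, so post-caerulein 04 was the lowest of all. Bambi, a decoy receptor gene, was at 0.701 to 2.00 CPM in post-caerulein and 0.421 to 1.20 CPM in untreated libraries. Msx1, Chrd and Bambi were tested and did not pass with the block by edgeR's quasi-likelihood test.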
